A study of Chrysemys picta and Apalone spinifera with 20 samples.

Results

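Rspo1 (XM_005298351), Ctnnb1 (XM_005278593) and Apc (XM_005281615) are 3 genes of the canonical Wnt pathway that were followed here in turtle embryos. They were taken as 3 fixed rows of the authors' count tables, which list 13940 genes in Chrysemys picta and 12678 in Apalone spinifera, and were chosen by their identifiers. Embryos of the painted turtle Chrysemys follow egg temperature in their sex, and 26 °C yields males while 31 °C yields females. In the softshell turtle Apalone sex follows ZZ and ZW sex chromosomes, and the same 2 temperatures were used. In both species the tissue was the trunk at stage 9, the adrenal-kidney-gonad complex (AKG) at stages 12 and 15, and the dissected gonad at stages 19 and 22. Each of the 20 libraries is the only one of its species, temperature and stage. It was made from a pool of 10 Chrysemys embryos or of 5 unsexed Apalone embryos, and the eggs came from a turtle farm. The question behind the comparison of temperatures is which genes respond to warmth before and during the window in which Chrysemys sex is set, and whether a turtle with sex chromosomes still shows such responses.

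In canonical Wnt signalling a secreted ligand binds a Frizzled receptor, and beta-catenin, which is otherwise degraded, builds up and enters the nucleus. Apc is a scaffold of the complex that marks beta-catenin for degradation, Ctnnb1 encodes beta-catenin itself, which also anchors cadherins at cell junctions, and Rspo1 encodes R-spondin 1, a secreted protein that acts through Lgr receptors to raise the sensitivity of cells to Wnt. In mammals Rspo1 and Ctnnb1 act on the ovarian side of gonad development, where they oppose the testis programme. Protein stability controls much of this pathway, and transcript counts do not measure it.

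Every deposited count was an even number, so the values below are read pairs, which are the counts divided by 2. The read pairs counted on genes summed to 5805049 to 12303323 per library in Chrysemys and 2772365 to 4750742 in Apalone. These sums leave out reads that were not counted on a gene, so they do not give the sequencing depth. A scaled read pair count is the number of read pairs divided by a factor that sets the upper quartile (75th percentile) of all libraries of one species equal. Apalone reads were counted on Chrysemys genes, so levels are not compared between the species, and gene lengths were not used here, so levels are not compared between genes either. In bulk RNA, fewer expressing cells and less RNA per cell cannot be told apart. All 8 gonadal somatic markers that were looked up were found in both tables. In the Chrysemys gonads Foxl2, an ovarian factor, had 6.0 and 3.76 scaled read pairs at 26 °C and 28.6 and 52.3 at 31 °C (stages 19 and 22), and Amh, a hormone of the testis, had 2004 and 14918 at 26 °C and 24.3 and 12.6 at 31 °C. Nr5a1 had 370 and 717 at 26 °C and 136 and 47.1 at 31 °C. Gata4 had 70.2 and 197 at 26 °C and 35.7 and 12.6 at 31 °C. The 31 °C complexes of stage 12 held 41.7 of Nr5a1 and 14.1 of Gata4. In the gonads Lhx9, Sox9, Emx2 and Dmrt1 were also lower at 31 °C at both stages. Summed levels of 7 of 10 skeletal muscle markers were also unequal there, at 1042 and 1168 scaled read pairs at 26 °C and 11372 and 12994 at 31 °C. Among Apalone gonads the summed muscle level was 737, 565 and 1747 in 3 libraries and 37581 in the 31 °C library of stage 22. The Apalone gonad pools also differed in markers of gonadal sex, since Amh at stage 22 had 0 read pairs at 26 °C and 115 at 31 °C while Foxl2 had 129 and 48. Amh had 0 read pairs in both Apalone trunks, and so had the muscle marker Myog in both Apalone gonads of stage 19. The summed level of 4 of 10 kidney markers was 6819 to 12379 scaled read pairs in Chrysemys gonads, above the 631 to 2792 in complexes, so kidney markers were detected in libraries labelled gonad. None of 6 adrenal markers could be looked up by name.

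**Figure D1:**
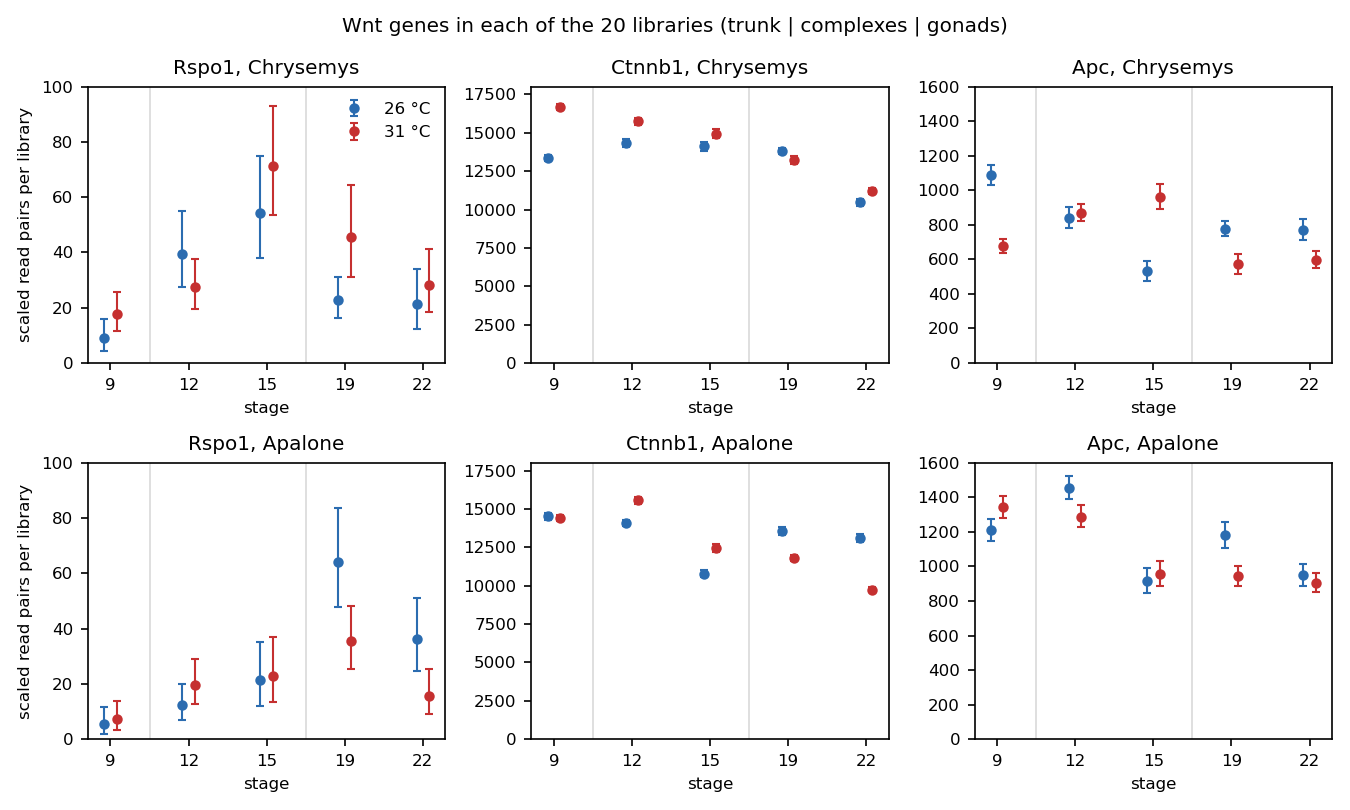
Scaled read pairs (vertical axis, linear from 0, a separate scale for each gene) of Rspo1, Ctnnb1 and Apc at stages 9 to 22 in the 20 libraries. Each point is 1 library at 26 °C (blue) or 31 °C (red), bars are exact 95% counting intervals of the read pairs, and grey lines part trunks, complexes and gonads; Rspo1 varied most, with 8.86 to 71.3 scaled read pairs in Chrysemys, and Ctnnb1 least.

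Rspo1 had few read pairs, with 314 read pairs over the 10 Chrysemys libraries and 228 over the 10 of Apalone. It was also the one whose level varied most along development, counting error included. In Chrysemys it had 11 and 26 read pairs in the 26 °C and 31 °C trunks, 34 and 39 in the complexes of stage 12, 36 and 54 in those of stage 15, 38 and 32 in the gonads of stage 19, and 17 and 27 in those of stage 22. After scaling these were 8.86 and 17.6, 39.5 and 27.6, 54.2 and 71.3, 22.8 and 45.7, and 21.3 and 28.2. The trunks were lowest at both temperatures, the complexes of stage 15 were highest, and the 31 °C library was the higher one at every stage except stage 12. Averaged by tissue, Rspo1 had 48.1 ± 18.9 scaled read pairs in complexes (SD, n = 4), 29.5 ± 11.2 in gonads (SD, n = 4) and 13.2 ± 6.18 in trunks (SD, n = 2). The 2 trunk libraries lay below all other 8 libraries, as they did for 9.93% of genes with at least 100 read pairs, while the ranges of complexes and gonads overlapped.

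In Apalone the highest levels of Rspo1 came later. The 26 °C and 31 °C libraries held 6 and 9 read pairs in trunks, 16 and 24 at stage 12, 15 and 17 at stage 15, 53 and 40 at stage 19, and 31 and 17 at stage 22, which scaled to 5.35 and 7.22, 12.3 and 19.6, 21.4 and 23.01, 64.0 and 35.5, and 36.1 and 15.7. The 26 °C gonads of stage 19 were the highest library and the trunks the lowest, and the 26 °C library was the higher one in gonads only. Tissue means were 37.8 ± 19.8 scaled read pairs in gonads (SD, n = 4), 19.1 ± 4.72 in complexes (SD, n = 4) and 6.28 ± 1.32 in trunks (SD, n = 2). Here too both trunk libraries lay below the other 8, which 12.9% of genes with at least 100 read pairs did. Gonads and complexes overlapped, because the 31 °C gonads of stage 22 were below 3 of the 4 complexes.

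At no stage was Rspo1 called between temperatures in either species. The call was made by Fisher's exact test, two-sided, on the read pairs of the 26 °C and 31 °C library of a stage, with a p adjusted by Benjamini-Hochberg over all genes and a threshold of 1e-10. Such a test speaks of 2 libraries rather than of 2 temperatures, and its intervals cover counting error only. The log2 ratio of 31 °C over 26 °C, taken on scaled read pairs plus 1, was 0.92, -0.50, 0.39, 0.97 and 0.39 at Chrysemys stages 9, 12, 15, 19 and 22. Its interval lay above 0 at stage 19 alone, where the ratio was 2.01-fold with an exact 95% interval of 1.21 to 3.30 (Fisher adjusted p = 0.0121). In Apalone the log2 ratios were 0.37, 0.63 and 0.10 at stages 9, 12 and 15, and -0.83 and -1.15 in the gonads. The stage 19 ratio was 0.555-fold with an interval of 0.358 to 0.852 (Fisher adjusted p = 0.0235) and the stage 22 ratio 0.437-fold with an interval of 0.227 to 0.814 (Fisher adjusted p = 0.0213). The counts of Rspo1 limit what such a test can show. At Chrysemys stage 19 a ratio of 5.56-fold in favour of 31 °C would have been needed for a call at its sum of 70 read pairs. At Chrysemys stage 9 and Apalone stages 9 and 15 no split in favour of 31 °C could have reached the threshold. Splits in favour of 26 °C were not examined. Of genes with 10 to 99 read pairs at a stage, 0% to 1.3% were called in the 5 Chrysemys comparisons.

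Rspo1 thus stood higher at 31 °C in both Chrysemys gonad stages and lower at 31 °C in both Apalone gonad stages, a combination of signs shown by 7.46% of genes with at least 100 read pairs in each species. Within each species the 2 gonad libraries at one temperature did not overlap the 2 at the other, as was so for 22.8% of these genes in the Chrysemys direction and 23.1% in the Apalone direction. Divided by library totals instead of the upper quartile, the temperatures overlapped in the gonads of both species. In Apalone the gonad library with more Rspo1 at stage 22 was the one with more Foxl2 (150 against 44.5 scaled read pairs) and with 0 Amh read pairs, and at stage 19 Foxl2 was 39.9 at 26 °C and 21.3 at 31 °C while Amh was 176 and 63.0. The part of the sex makeup of these pools and of the muscle markers in the Rspo1 ratios was not tested.

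Ctnnb1 was deeply counted, and its level varied little. In Chrysemys the 26 °C and 31 °C libraries held 13359.8 and 16695 scaled read pairs at stage 9, 14351 and 15746 at stage 12, 14121 and 14948 at stage 15, 13812 and 13214 at stage 19, and 10469.8 and 11199 at stage 22. The level at 31 °C was lower at each later stage, from the highest library of the species in trunks, while at 26 °C the gonads of stage 22 stood below the other 4 libraries, which lay close together. The highest library exceeded the lowest 1.59-fold, and only 3.73% of the 10917 Chrysemys genes with at least 200 read pairs varied less by this measure, for which the median gene gave 3.05-fold. In genes with fewer read pairs counting error adds more to this measure, and Ctnnb1 was not ranked among equally deep genes. Mean levels were 15027 ± 2358 in trunks (SD, n = 2), 14791 ± 725 in complexes (SD, n = 4) and 12174 ± 1594 in gonads (SD, n = 4). Trunks and complexes overlapped, and all 4 gonads lay below all 4 complexes, as for 18% of genes with at least 100 read pairs. Divided by library totals instead of the upper quartile, the 26 °C gonads of stage 19 lay above the complexes of stage 15.

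Between temperatures Ctnnb1 was called at Chrysemys stages 9 and 12, with a higher level at 31 °C at both. The log2 ratio was 0.32 at stage 9, a 1.25-fold ratio with an exact 95% interval of 1.23 to 1.27 (Fisher adjusted p = 7.6e-109), and 0.13 at stage 12, a 1.10-fold ratio with an interval of 1.07 to 1.12 (Fisher adjusted p = 2.2e-15). At stages 15, 19 and 22 the log2 ratios were 0.08, -0.06 and 0.10, and none was called (Fisher adjusted p = 2.0e-04, 8.5e-04 and 1.6e-05). Calls were common among all genes at these stages, which gave 15.8%, 6.56%, 9.29%, 17.8% and 14.6% of those tested in stage order. They were more common still among genes as deeply counted as Ctnnb1, of which (10000 or more read pairs) 81.1% were called at stage 9 and 70% at stage 12. Over stages 9 to 15 the 3 libraries at 31 °C lay above the 3 at 26 °C without overlap, as for 2.51% of genes with at least 100 read pairs. Divided by library totals instead, the 31 °C library of stage 15 lay below the 26 °C libraries of stages 9 and 12. The calls of Ctnnb1 in Chrysemys followed the scaling at every stage except stage 12. With library totals in place of the upper quartile, the median log2 ratio of genes with at least 100 read pairs moved to -0.21, 0.11, 0.11, -0.30 and -0.33 in stage order, and Ctnnb1 was then at 0.06 and not called at stage 9 (Fisher adjusted p = 4.6e-05), and called at stages 15, 19 and 22, at 0.20, -0.36 and -0.26. Its stage 19 ratio was also called with TMM, at -0.18 beside a median of -0.11, and with the size factors of DESeq2, at -0.13.

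In Apalone Ctnnb1 held 14506 and 14398 scaled read pairs in the 26 °C and 31 °C trunks, 14064 and 15557 at stage 12, 10781 and 12441 at stage 15, 13544 and 11797 at stage 19, and 13104 and 9742 at stage 22. The 31 °C library was the higher one in both complexes and the lower one in both gonad stages, and the trunks were alike. The log2 ratios were -0.01, 0.15, 0.21, -0.20 and -0.43 in stage order, and all but that of stage 9 were called (Fisher adjusted p = 0.78, 1.4e-20, 8.7e-19, 2.1e-25 and 7.1e-104). With library totals the calls of stages 12 and 19 were lost, at 0.07 and -0.09 (Fisher adjusted p = 5.3e-05 and 2.1e-05, medians of -0.05 and 0.11), and that of stage 12 also with the size factors of DESeq2, at 0.09 (Fisher adjusted p = 1.7e-08), whereas stages 15 and 22 were called under every scaling tried, at 0.21 to 0.30 and at -0.44 to -0.39. Genes called made up 1.84%, 2.46%, 4.14%, 5.78% and 5.2% of those tested at these stages, and 53.2% to 80% of genes with 10000 or more read pairs. The 4 gonad libraries split by temperature without overlap, as did 23.1% of genes with at least 100 read pairs in that direction. At stage 22 the ratio was 0.743-fold with an exact 95% interval of 0.724 to 0.764. The 31 °C library there was the one with the high summed muscle level given above. The libraries of that stage also differed in Amh and Foxl2, and the part of these differences in the ratio was not tested. Over all 10 libraries the highest level was 1.60 times the lowest, and 11.1% of the 8024 genes with at least 200 read pairs varied less, again not matched for read pairs.

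**Figure D2:**
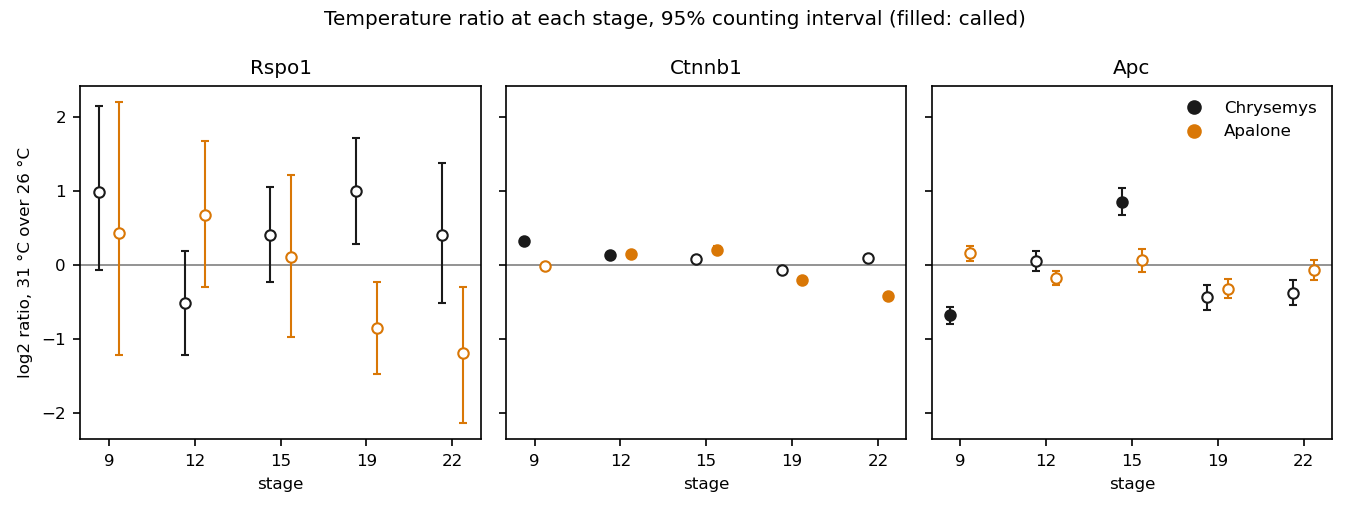
Log2 ratio of 31 °C over 26 °C (vertical axis) of each gene at stages 9 to 22 in Chrysemys (black) and Apalone (orange), without the added 1, with exact 95% counting intervals as bars. Filled points were called at an adjusted p under 1e-10; the intervals of Ctnnb1 are narrow and those of Rspo1 wide, and the Apc ratio in Chrysemys lies below 0 at stage 9 and above 0 at stage 15.

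Apc showed the largest called ratios of the 3 genes, and they ran in opposite directions at different stages of Chrysemys. Its scaled read pairs at 26 °C and 31 °C were 1087 and 676 in trunks, 839 and 872 in the complexes of stage 12, 531 and 962 in those of stage 15, 776 and 572 in the gonads of stage 19, and 772 and 595 in those of stage 22. At 26 °C the trunk was the highest library and the complexes of stage 15 were the lowest, whereas at 31 °C the complexes of stages 12 and 15 were high and trunk and gonads low. The log2 ratio was -0.68 at stage 9, a 0.622-fold ratio with an exact 95% interval of 0.573 to 0.676 (Fisher adjusted p = 3.9e-29), and 0.86 at stage 15, a 1.81-fold ratio with an interval of 1.59 to 2.06 (Fisher adjusted p = 1.3e-19). At stage 12 it was 0.05 and not called (Fisher adjusted p = 0.62). In the gonads it was -0.44 and -0.37, which missed the threshold of 1e-10 (Fisher adjusted p = 1.9e-07 and 3.2e-05), and the 2 gonad libraries at 31 °C lay below both at 26 °C, as for 20.9% of genes with at least 100 read pairs. The stage 19 ratio was called on counts as deposited, with TMM, at -0.55, and with library totals, at -0.74, and the stage 22 ratio with library totals, at -0.74. The stage 15 ratio rests on 353 read pairs at 26 °C and 728 at 31 °C. Of all genes tested, 15.8% were called at stage 9 and 9.29% at stage 15. In the depth class that held Apc, the one next below 10000 read pairs, 37.1% and 29.7% were. The ranking of Apc covers called ratios only. The Rspo1 log2 ratios of 0.92 and 0.97 at Chrysemys stages 9 and 19 were larger but not called, on far fewer read pairs.

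Apc was called at no Apalone stage on read pairs. The 26 °C and 31 °C libraries held 1208 and 1345 scaled read pairs in trunks, 1454 and 1289 at stage 12, 919 and 958 at stage 15, 1181 and 945 at stage 19, and 948 and 905 at stage 22. Trunks and the complexes of stage 12 were the 4 highest libraries at both temperatures, and no order of the temperatures held over the stages before the gonads. The log2 ratios were 0.15, -0.17, 0.06, -0.32 and -0.07, with the lowest Fisher adjusted p of 5.0e-06 at stage 19, which passed on counts as deposited (1.3e-11). By tissue Apc had 1277 ± 96.4 scaled read pairs in trunks (SD, n = 2), 1155 ± 260 in complexes (SD, n = 4) and 995 ± 126 in gonads (SD, n = 4), and in Chrysemys 882 ± 290, 801 ± 187 and 679 ± 111, and in both species each tissue overlapped the next. The highest library exceeded the lowest 1.61-fold in Apalone, against 2.05-fold in Chrysemys.

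Since Ctnnb1 and Apc are counted in the same library, the number of Ctnnb1 read pairs per Apc read pair does not depend on how libraries are scaled. It is not corrected for gene length, so only its differences between libraries are of use. It rests on the same counts as the Ctnnb1 and Apc ratios above, so it is no separate result, and other gene pairs were not examined. In Chrysemys it was 12.3 at 26 °C and 24.7 at 31 °C at stage 9, 17.1 and 18.1 at stage 12, 26.6 and 15.5 at stage 15, 17.8 and 23.1 at stage 19, and 13.6 and 18.8 at stage 22. The order of the temperatures at stage 15 was thus the reverse of that at stages 9, 19 and 22, and at stage 12 the values were close. On the log2 scale the differences were 1.01 ± 0.06 at stage 9, 0.08 ± 0.07 at stage 12 and -0.77 ± 0.10 at stage 15 (SE from counting alone). In the gonads they were 0.38 ± 0.08 and 0.47 ± 0.09. In Apalone all 10 libraries lay between 9.67 and 13.8, and the log2 differences between temperatures ran from -0.36 ± 0.07 at stage 22 to 0.32 ± 0.05 at stage 12.

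**Figure D3:**
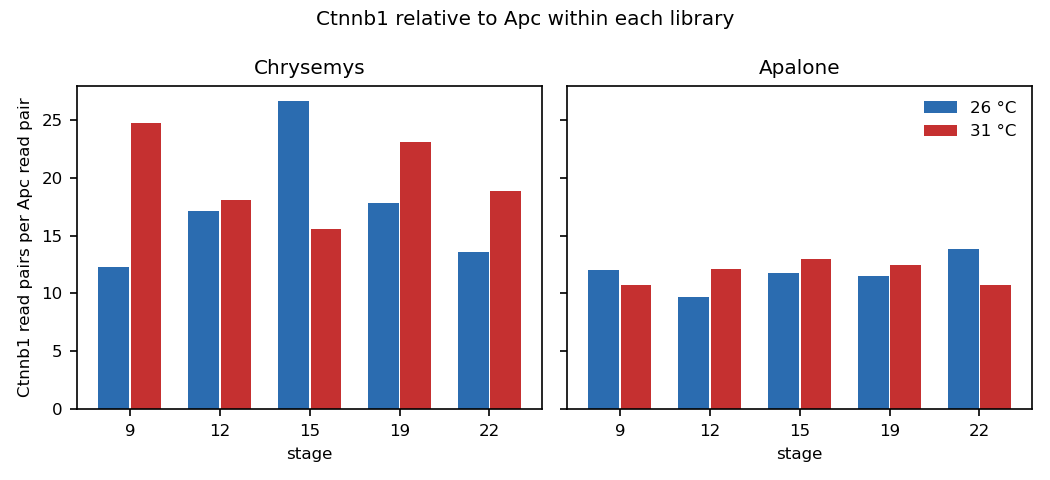
Ctnnb1 read pairs per Apc read pair (vertical axis, from 0) in each library by stage, at 26 °C (blue bars) and 31 °C (red bars). Each bar is 1 library; in Chrysemys the values ran from 12.3 to 26.6 and in Apalone from 9.67 to 13.8.

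Temperature was repeated only over stages, so fits with edgeR's quasi-likelihood test took the stage as a block and used the spread of all 10 libraries of a species. Genes passed at an adjusted p under 0.05 over all genes tested. None of the 3 genes passed for any effect of temperature, which 0.0156% of genes in Chrysemys and 0.0282% in Apalone did over all stages, 0% in both species over stages 9 to 15, and 1.62% in Chrysemys and 0% in Apalone in the gonads. Rspo1 had a fitted log2 fold change of 0.42 (SE 0.32, edgeR adjusted p = 0.90) over all Chrysemys stages and of 0.67 in the gonads (SE 0.51, edgeR adjusted p = 0.60). In Apalone gonads it was at -1.01 (SE 0.37, edgeR adjusted p = 0.25), with an unadjusted p of 0.024. The 2 gonad estimates differed by 1.71 (SE 0.65), which did not pass in the fit over all 20 libraries (edgeR adjusted p = 0.39). For Ctnnb1 the fitted log2 fold change over the stages was 0.09 (SE 0.19, edgeR adjusted p = 0.97) in Chrysemys and -0.05 (SE 0.11, edgeR adjusted p = 0.84) in Apalone, and for Apc -0.15 (SE 0.23, edgeR adjusted p = 0.96) and -0.07 (SE 0.11, edgeR adjusted p = 0.79). Whether the called ratios of single stages exceed the spread between pools could not be tested, since no stage has another pool at the same temperature. Where 0% of genes passed, an unadjusted p under 0.05 was found for 315 Chrysemys genes (2.46%) and 500 Apalone genes (4.7%) over stages 9 to 15. In Apalone gonads it was found for 1671 genes (15.7%). DESeq2 called 5, 11 and 252 genes in these tests.

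The change of the 3 genes along development was tested in the same fits, with the temperatures as a block. Between trunks and complexes Rspo1 had estimates of like size in both species, with a log2 fold change of 1.35 (SE 0.51) in Chrysemys and 1.29 (SE 0.54) in Apalone from stage 9 to 12, and neither passed (edgeR adjusted p = 0.27 and 0.26). From complexes to gonads the estimates went opposite ways, at -0.69 (SE 0.35, edgeR adjusted p = 0.14) in Chrysemys and 0.90 (SE 0.36, edgeR adjusted p = 0.16) in Apalone. This difference between the species was -1.55 (SE 0.53) and missed the threshold in edgeR (adjusted p = 0.069), a test that 11.2% of genes passed. It passed in DESeq2 (adjusted p = 0.032), as did 2156 of the 12184 genes with an adjusted p there. Apc in Apalone had an estimate of -0.54 (SE 0.17) from stage 12 to 15, with an edgeR adjusted p of 0.063. The estimates of Ctnnb1 ran from -0.35 to -0.01 over the stage contrasts of both species, and none passed. Of all genes, 0.452%, 0%, 36% and 0% passed for stage 12 against 9, 15 against 12, gonads against complexes and 22 against 19 in Chrysemys, and 1.67%, 14.8%, 8.43% and 0% in Apalone. For the 3 genes, 0 of 24 tests in Chrysemys and 0 of 24 in Apalone passed, 1 and 5 had an unadjusted p under 0.05, and DESeq2 called 0 in each species.

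**Figure D4:**
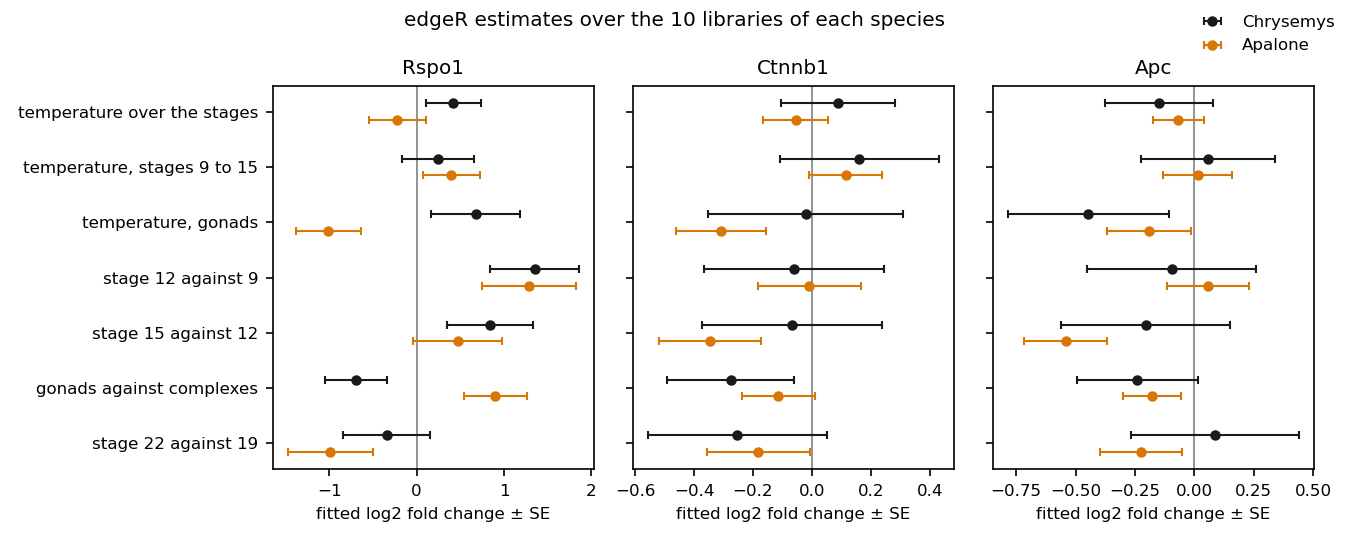
Fitted log2 fold change (horizontal axis, points) with its SE (bars) from edgeR for 3 temperature effects and 4 stage contrasts of each gene, in Chrysemys (black) and Apalone (orange). Values above 0 mean a higher level at 31 °C, or in the stage or tissue named before "against"; the 2 species lie on opposite sides of 0 for Rspo1 in the gonads (0.67 and -1.01) and between gonads and complexes (-0.69 and 0.90).

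The rest of the pathway was followed in a list of 101 Wnt genes, of which 50 could be matched by symbol to a row in each table, 47 beside the 3 genes above. The other 51 were not analysed here. Calls between temperatures among these genes numbered 9 of 47, 4 of 46, 6 of 46, 17 of 46 and 15 of 47 in Chrysemys in stage order, which is 19.1%, 8.7%, 13%, 37% and 31.9% beside 15.8%, 6.56%, 9.29%, 17.8% and 14.6% of all genes. Of the 51 calls 26 were higher and 25 lower at 31 °C, so the list moved in no single direction, and its median log2 ratio lay between -0.08 and 0.12, beside 0.01 to 0.05 over all genes. In Apalone 1 of 47, 4 of 46, 3 of 46, 5 of 44 and 3 of 45 were called, which is 2.13%, 8.7%, 6.52%, 11.4% and 6.67% beside 1.84%, 2.46%, 4.14%, 5.78% and 5.2% of all genes, with 7 higher and 9 lower. The share called rises with the read pairs of a gene, as given above for Ctnnb1, and the list was not matched for them.

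Next to Rspo1 in role, the table held its receptors Lgr4 and Lgr6. Lgr4 was not called at a Chrysemys stage, with log2 ratios from -0.21 to 0.31, and in Apalone it was called at stage 19, with 655 read pairs at 26 °C and 551 at 31 °C and a log2 ratio of -0.69 (Fisher adjusted p = 2.3e-15). At stage 22 its log2 ratio was -0.40 and not called (Fisher adjusted p = 1.0e-06). The receptor and Rspo1 thus had lower values at 31 °C in both Apalone gonad stages, as did 32.1% of genes with at least 100 read pairs. Lgr6 had at most 87 read pairs in a library and was not called.

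Among the partners of Apc in the destruction complex, Amer1 was called at both stages where Apc was. Amer1, which binds Apc at the membrane, had a log2 ratio of -0.99 at Chrysemys stage 9 (593 and 355 read pairs, Fisher adjusted p = 2.3e-24) and of 1.57 at stage 15 (46 and 157 read pairs, Fisher adjusted p = 2.2e-11), the same directions as Apc. Gsk3b, a kinase that phosphorylates beta-catenin, had a log2 ratio of -0.68 at stage 9 (799 and 593 read pairs, Fisher adjusted p = 1.9e-17) and was not called at stage 15, at 0.38. Of the 7 genes of this complex beside Apc, 3 were called lower and 0 higher at Chrysemys stage 9, where 5.96% of all genes were called lower and 9.86% higher. The median log2 ratio of the 7 was 0.04 there, with 4 of 7 above 0. At stage 15, 0 were called lower and 1 higher, beside 5.3% and 3.99% of all genes. In the gonads 3 were called lower at stage 19 and 2 at stage 22, with 0 higher, beside 6.81% and 5.81% lower and 11% and 8.81% higher over all genes. The lower ones included Fbxw11, part of the ubiquitin ligase that recognises beta-catenin, at -0.99 at stage 19 (Fisher adjusted p = 2.1e-25). The shares over all genes were not matched to the 7 for read pairs, with which the share called rises. In the depth class that held Apc, 37.1%, 29.7%, 42.1% and 39.5% were called in either direction at Chrysemys stages 9, 15, 19 and 22. Not all of the 7 were counted deeply enough for that class. Whether the complex had more calls than equally deep genes was not tested. In Apalone 1 of these 7 genes was called over all stages, the casein kinase gene Csnk1e at stage 12, with a log2 ratio of 0.68 (Fisher adjusted p = 1.1e-11). Of all Apalone genes, 2.46% were called at stage 12 and 1.84% to 5.78% at a stage.

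The secreted inhibitor Sfrp2, which holds Wnt ligands away from their receptors, was the 1 listed gene that passed an edgeR test of temperature. That test, in Chrysemys gonads, was passed by 2.13% of the 47 listed genes and 1.62% of all genes. Its only repeats of a temperature were the pools of different stages. In the gonads of stages 19 and 22 Sfrp2 had 492 and 216 scaled read pairs at 26 °C and 1801 and 838 at 31 °C. The fitted log2 fold change in gonads was 1.88 (SE 0.30, edgeR adjusted p = 0.0054). The 31 °C libraries were high at both stages. They are the ones with the higher muscle markers and with less Nr5a1 and Gata4, whose part was not tested. The junction protein gene Cdh2, whose product binds beta-catenin, was called lower at 31 °C in the Chrysemys gonads, with a log2 ratio of -0.71 at stage 19 (Fisher adjusted p = 2.8e-45) and -1.32 at stage 22 (1911 and 919 read pairs, Fisher adjusted p = 2.3e-121). In Apalone it was called in both directions, lower at 31 °C at stage 15, with -0.59 (1858 and 1296 read pairs, Fisher adjusted p = 1.3e-28), and higher at stage 19, with 0.60 (2238 and 4603 read pairs, Fisher adjusted p = 3.1e-58). Fst, a follistatin gene that Wnt signalling turns on in the mammalian ovary, was called at Chrysemys stage 22. It had 69 read pairs at 26 °C, 251 at 31 °C and a log2 ratio of 1.59 (Fisher adjusted p = 6.6e-18). The other matched targets of the list went both ways at that stage. Myc was called higher, at 1.18 (Fisher adjusted p = 3.2e-24), and Nkd1 lower, at -1.35 (Fisher adjusted p = 2.4e-22). Lef1, at -0.67, and Ccnd1, at -0.12, were not called. At Apalone stage 22 the log2 ratio of Fst was -0.70, which missed the threshold (Fisher adjusted p = 3.7e-10). The Apalone pools of that stage also differed in Amh and Foxl2, whose part was not tested. Between gonads and complexes 6 listed genes were higher and 11 lower in the edgeR fit of Chrysemys (36.2% of the list and 36% of all genes), and 4 and 4 in Apalone (17.8% and 8.43%), none of them Rspo1, Ctnnb1 or Apc.

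**Figure D5:**
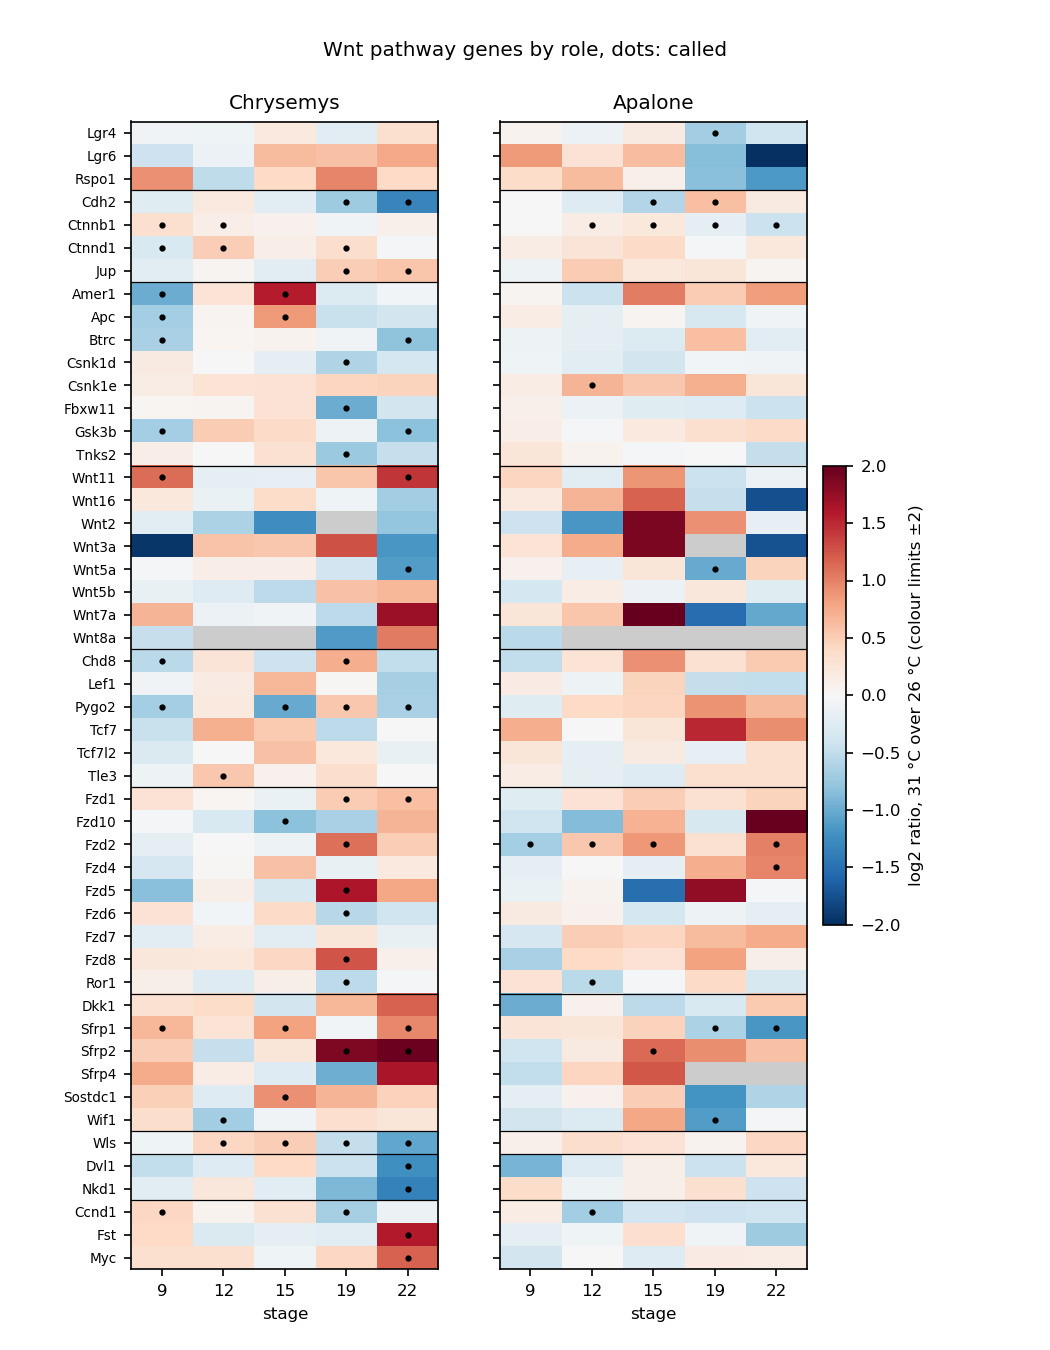
Log2 ratio of 31 °C over 26 °C (colour, red higher and blue lower at 31 °C) of the 50 matched Wnt genes (rows, in blocks by role) at each stage (columns) in Chrysemys and Apalone. Black dots mark genes called at an adjusted p under 1e-10, grey cells had no read pair in either library, and the calls of Chrysemys are spread over both directions (26 higher and 25 lower beside Rspo1, Ctnnb1 and Apc).

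The genes whose levels ran most like each of the 3 were ranked over 5124 named genes by the smaller of the 2 Pearson correlations of log2 scaled read pairs, one over the 10 libraries of each species. These values describe the profiles, and libraries share stage, tissue and depth. Most like Rspo1 were Fkbp7 (0.88 in Chrysemys and 0.91 in Apalone), Ralyl (0.88 and 0.88), Lmf1 (0.90 and 0.87), Luzp2 (0.85 and 0.87) and Dcn (0.87 and 0.84). For Ctnnb1 they were Hnrnpll, Kifap3, Clk3, Ntf3 and Uba2, with correlations of 0.80 to 0.89, over a range of levels that is itself narrow. For Apc they were Jhdm1d (0.92 and 0.86), Srek1 (0.85 and 0.91), Six4 (0.82 and 0.88), Phactr1 (0.80 and 0.93) and Nipbl (0.80 and 0.83). By rank correlation 2 of the 5 for Rspo1, 0 of the 5 for Ctnnb1 and 3 of the 5 for Apc were named again.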

How the data were processed

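The libraries were sequenced as paired-end reads of 100 bp. With GSNAP the authors aligned those of either turtle against genes annotated in the Chrysemys picta genome, and gene counts came from unstranded HTSeq. The submitters' processing notes also list Trimmomatic 0.27. The deposited values are these raw counts, with no scaling, in 1 table per species. No odd count was found, and counts were halved to read pairs. Gene symbols were read from descriptions in supplementary tables of the study and from RefSeq annotation of a different build (names only), which gave 6874 of 13940 Chrysemys and 6784 of 12678 Apalone rows a symbol. Both sources named 1604 rows, and 1531 of these agreed. Without strand, reads of overlapping antisense genes cannot be told apart.

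Read pairs were tested per stage by a two-sided Fisher's exact test against upper-quartile effective library sizes, with p-values adjusted by Benjamini-Hochberg across genes that had a count, and a pseudocount of 1 in log2 ratios. The study's housekeeping step was not run. Deposited counts were fitted with edgeR 4.0.16 (TMM, filterByExpr, quasi-likelihood test), and DESeq2 1.42.0 was an alternative, in R 4.3.3. Python 3.11.15 with scipy 1.17.1 and pandas 2.3.3 was used. Both tests were first run on simulated data, without spread between pools for Fisher's test and with a fixed spread for the fits. Such runs do not show how the tests behave with single pools. Alternatives were other scalings, counts as deposited, filters, thresholds and leaving out each stage or library. Named were the 3 genes, the 5 genes most like each, and of the Wnt list the 2 called genes with the largest and the 2 with the smallest ratio per stage among those with 100 or more read pairs, genes that passed an edgeR test and genes sharing a role with one of the 3; of these the text gives those nearest the 3 genes. The genes, lists and tests were chosen with earlier results of these data known. With 1 library per group, Fisher p-values cover counting error alone, and edgeR and DESeq2 p-values measure the spread between libraries that also differ in stage.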

Additional observations from a re-analysis of the deposited data

Results flagged for a closer look

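Rspo1 stood out because its ratios of 31 °C over 26 °C ran opposite ways in groups of libraries. In Apalone its log2 ratios of scaled read pairs were 0.37, 0.63 and 0.10 in trunks and complexes. They were -0.83 at stage 19 and -1.15 at stage 22. The estimates before the gonads were thus positive and those of both gonad stages negative. The estimates before the gonads rest on 6 to 24 read pairs per library. Their exact 95% counting intervals all included no difference, so their direction is not settled. How many genes share this order of signs was not counted. In the edgeR fit the gonad effect minus the earlier effect was -1.41 (SE 0.50), with an unadjusted p of 0.020 and an adjusted p of 0.91. That fit used the same libraries that flagged the gene, so it gives no separate support.

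Between the species the gonads differed in sign, with Rspo1 log2 ratios of 0.97 and 0.39 for Chrysemys against -0.83 and -1.15 for Apalone. The difference between the species was 1.71 (SE 0.65) in edgeR, with an unadjusted p of 0.020 and an adjusted p of 0.39. It too was fitted to the libraries that flagged the gene. The combination of signs was shared by 7.46% of genes with at least 100 read pairs in each species.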

How the results depend on the processing

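Depth limits Rspo1, whose 6 to 54 read pairs per library leave ratios open to wide counting error, and the scaling limits the Ctnnb1 ratios, whose calls turned on it at 4 Chrysemys and 2 Apalone stages. Calls over the 3 genes and 5 stages numbered 4 in Chrysemys and 4 in Apalone, 8 and 2 with library totals, and 10 and 9 at an adjusted p under 0.05. They numbered 5 and 5 on counts as deposited and 6 and 4 with TMM. After the data were seen, stages 9, 12 and 15 alone were counted, with 4 and 2. The Wnt list calls, 51 in Chrysemys and 16 in Apalone, became 125 and 93 at an adjusted p under 0.05, 36 in Apalone on counts as deposited, and 19 and 8 at stages 9, 12 and 15 alone. Of all genes tested at a stage, 33.3% to 52.1% in Chrysemys and 15% to 29.9% in Apalone were called under 0.05.

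Of the log2 ratios at a stage, 213 alternatives kept direction and call, 20 gained and 4 lost a call. This tally does not measure stability, because some alternatives could not change direction or could not remove a call. The larger pseudocount left the Fisher test and the direction as they were. The filter on low counts and the looser threshold kept each ratio. The looser threshold could only add calls, and some of the 20 gains came from it. With library totals Ctnnb1 at Chrysemys stage 22 changed from 0.10 to -0.26. At Apalone stage 9 it changed from -0.01 to 0.018 with TMM and 0.025 with the size factors of DESeq2, and its stage 12 against 9 estimate in Apalone from -0.01 to 0.025 without a filter on low counts. Why the scalings differ was not tested.

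Leaving out 1 stage or library at a time turned the sign of 14 of 48 fitted effects, none of which had passed. For stage 12 against 9 the range was -0.20 to 0.058 for Ctnnb1 and -0.44 to 0.27 for Apc in Chrysemys, and -0.11 to 0.092 and -0.10 to 0.23 in Apalone. For Apc in Chrysemys it was -0.90 to 0.30 for stage 15 against 12, -0.52 to 0.081 for gonads against complexes and -0.14 to 0.36 for stage 22 against 19, and for Ctnnb1 in Apalone -0.41 to 0.021 for the last. Temperature effects over stages 9 to 15 ran from -0.066 to 0.63 for Rspo1 and -0.35 to 0.44 for Apc in Chrysemys and from -0.078 to 0.13 for Apc in Apalone, that of Ctnnb1 in Chrysemys gonads from -0.17 to 0.11, and those over all Apalone stages from -0.44 to 0.029 for Rspo1 and -0.14 to 0.032 for Ctnnb1. For Apc in Apalone, stage 15 against 12 passed when either trunk library was left out (both at -0.55, edgeR adjusted p = 0.048). The rank correlation kept 2, 0 and 3 of the 5 genes most like Rspo1, Ctnnb1 and Apc. The temperature fits paired the libraries of a stage through the stage block, and no replicate number was there to pair by, since every group holds 1 library.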
